A study of Mus musculus with 2 samples.

Results

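The nuclear-encoded respiratory chain subunits are the structural proteins of the mitochondrial electron transport chain and of the ATP synthase that are made from genes in the nucleus. The gene table was searched by symbol for the Nduf subunits of complex I, Sdha to Sdhd of complex II, the Uqcr subunits of complex III, the Cox4i to Cox8 subunits of complex IV and the Atp5 subunits of complex V. The search left out Ndufa4l2, the assembly factors named Ndufaf and every symbol with a hyphen, and it used no measured value. It found 84 of the 32285 genes in the table: 37 in complex I, 4 in complex II, 8 in complex III, 18 in complex IV and 17 in complex V.

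Complexes I, III and IV pump protons across the inner mitochondrial membrane as electrons pass from NADH to oxygen, complex II feeds in electrons from succinate, and complex V uses the proton gradient to make ATP. A set of core subunits of complexes I, III, IV and V is encoded in mitochondrial DNA, so each of these complexes needs matched supply from both genomes. Photoreceptors are known for a very high demand for ATP and pack their mitochondria into the inner segment, whereas Müller glia are known for a metabolism that relies strongly on glycolysis. Several complex IV subunits exist as paired isoforms from separate genes, one of them found in most tissues and the other in muscle, testis or lung.

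The series holds 2 single-cell RNA libraries from whole mouse retina, digested to a cell suspension and run on the 10x Genomics platform. One library came from BKS WT mice (C57BLKS background, Lepr wt/wt) and the other from BKS db/db mice (Lepr db/db, which lack a working leptin receptor and develop obesity and type 2 diabetes). Each library pooled 2 untreated mice at 13 weeks of age. With 1 library per genotype, differences between WT and db/db carry no test, and every interval given for them is an exact 95% interval for counting error only. Differences between cell classes were measured in both libraries and were tested with the libraries as a block. The db/db allele is carried by every cell of the animal, and the labels do not say which of the pooled mice a cell came from.

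Counts are unique molecular identifiers (UMIs), each standing for 1 captured RNA molecule. The libraries held 35642274 UMIs in 10308 barcodes (WT) and 33742189 UMIs in 11083 barcodes (db/db), of which 10230 and 10963 were kept. Cells were assigned to classes by marker genes that include no subunit gene. This gave 7505 WT and 8823 db/db rods, 318 and 306 cones, 466 and 371 bipolar cells, 207 and 124 Müller cells, 82 and 19 amacrine cells, and 42 and 45 microglia. Marker levels describe the classes but are no check of the labels, because the same genes assigned the cells. Levels are given as CPM (UMIs per 1000000 UMIs of the class). Arr3 (cone arrestin) stood at 3295 (WT) and 2909 (db/db) CPM in cones against 49.9 and 31.1 in rods. Glul (glutamine synthetase) stood at 8706 and 9368 in Müller cells against 133 and 121 in rods. The libraries shared 26 barcodes.

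Before the levels, the promoters are shown, because nuclear respiratory genes are known to share binding motifs for a few transcription factors. RefSeq promoters on GRCm38.p6, each from 250 bases before to 50 bases after the start of the gene, were at hand for 68 of the 84 members. The NRF1 letters TGCGCATGC, on either strand, were present in 5 of these 68 (7.35%) and in 1.72% of 27025 genes with a promoter. The ETS letters CCGGAAG (the GABP core) were present in 17 members (25%) and in 9.93% of all genes. The YY1 letters AAGATGGCG were present in 7 members (10.3%) and in 1.64% of all genes. The ETS and YY1 letters can overlap by 3 bases, which occurred in none of these promoters (0 of 27025).

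The 5 promoters below are those of members that the results turn on: Cox8a, which led the difference between cones and rods; Atp5l, among the highest ratios of db/db to WT in cones; Cox6b1 and Cox6b2, an isoform pair that differed by class; and Ndufa10, which was lower than in rods in every class tested. Capitals mark the NRF1 and ETS letters; none of the 5 held the YY1 letters. All lie on the minus strand and are written 5′ to 3′ as the gene is read.
Cox8a (chr19:7217567-7217866, 2 ETS matches): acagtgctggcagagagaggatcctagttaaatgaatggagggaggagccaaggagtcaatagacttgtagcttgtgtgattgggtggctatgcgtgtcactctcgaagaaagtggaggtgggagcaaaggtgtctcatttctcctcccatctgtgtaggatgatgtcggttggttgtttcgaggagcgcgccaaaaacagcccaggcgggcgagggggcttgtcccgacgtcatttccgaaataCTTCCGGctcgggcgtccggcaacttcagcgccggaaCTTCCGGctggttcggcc
Atp5l (chr9:44920693-44920992, 1 NRF1 match and 2 ETS matches): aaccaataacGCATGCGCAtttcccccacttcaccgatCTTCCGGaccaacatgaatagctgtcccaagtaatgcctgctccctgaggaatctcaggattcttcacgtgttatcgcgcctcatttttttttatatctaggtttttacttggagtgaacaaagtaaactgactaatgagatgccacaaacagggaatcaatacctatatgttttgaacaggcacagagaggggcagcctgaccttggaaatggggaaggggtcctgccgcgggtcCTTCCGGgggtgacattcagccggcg
Cox6b1 (chr7:30626065-30626364, 1 ETS match): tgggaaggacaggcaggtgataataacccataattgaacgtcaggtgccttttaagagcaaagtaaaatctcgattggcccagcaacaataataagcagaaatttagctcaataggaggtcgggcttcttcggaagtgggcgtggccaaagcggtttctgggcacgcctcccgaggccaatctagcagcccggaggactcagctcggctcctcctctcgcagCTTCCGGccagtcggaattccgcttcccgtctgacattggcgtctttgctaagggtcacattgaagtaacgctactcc
Cox6b2 (chr7:4753045-4753344, no match): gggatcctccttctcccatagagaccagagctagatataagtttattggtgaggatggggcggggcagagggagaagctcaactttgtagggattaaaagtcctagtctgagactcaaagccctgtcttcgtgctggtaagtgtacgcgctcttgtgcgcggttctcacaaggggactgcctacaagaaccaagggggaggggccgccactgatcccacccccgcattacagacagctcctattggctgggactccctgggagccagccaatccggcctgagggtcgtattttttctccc
Ndufa10 (chr1:92473709-92474008, no match): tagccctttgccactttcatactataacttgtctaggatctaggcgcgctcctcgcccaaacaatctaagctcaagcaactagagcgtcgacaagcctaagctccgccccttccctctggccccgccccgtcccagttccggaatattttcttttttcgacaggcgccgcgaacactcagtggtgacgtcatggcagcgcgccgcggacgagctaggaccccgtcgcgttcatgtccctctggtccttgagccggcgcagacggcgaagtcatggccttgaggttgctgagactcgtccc

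Members with and without the ETS letters had similar cone levels relative to rods, with median log2 fold changes of 0.60 over 17 members and 0.56 over 48. In bipolar cells these medians were 0.61 and 0.38. In Müller cells they were -0.13 and -0.32. These are descriptions of a match of letters, and no test of the motif was made.

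Cones and bipolar cells devoted a larger share of their RNA to the subunit genes than rods summed as 1 class did, and Müller cells and microglia a smaller share. Rods were not uniform. Those with 9% and over of their UMIs on the 12 rod markers, described below, had shares of 3.25% (WT) and 3.23% (db/db), above those of cones and bipolar cells. The 84 genes together took 2.94% (WT) and 3.11% (db/db) of cone UMIs and 2.85% and 2.73% of bipolar UMIs. They took 2.00% and 1.85% of rod UMIs, 1.48% and 1.53% of Müller UMIs, and 0.922% and 0.907% of microglia UMIs. Amacrine cells, with 2.63% and 2.72%, lay near bipolar cells, but the 19 db/db amacrine cells fell under the minimum of 20 and the class entered no test. In both libraries the order was cone, bipolar, amacrine, rod, Müller, microglia. In the db/db library bipolar and amacrine cells were nearly level. With cells thinned to 1000 UMIs, which left out shallower cells (6335 of 7505 WT and 7865 of 8823 db/db rods, 305 of 318 and 291 of 306 cones, and 155 of 207 and 92 of 124 Müller cells entered), the shares were 2.03% and 1.94% in rods, 2.91% and 3.15% in cones, and 1.54% and 1.64% in Müller cells.

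**Figure D1:**
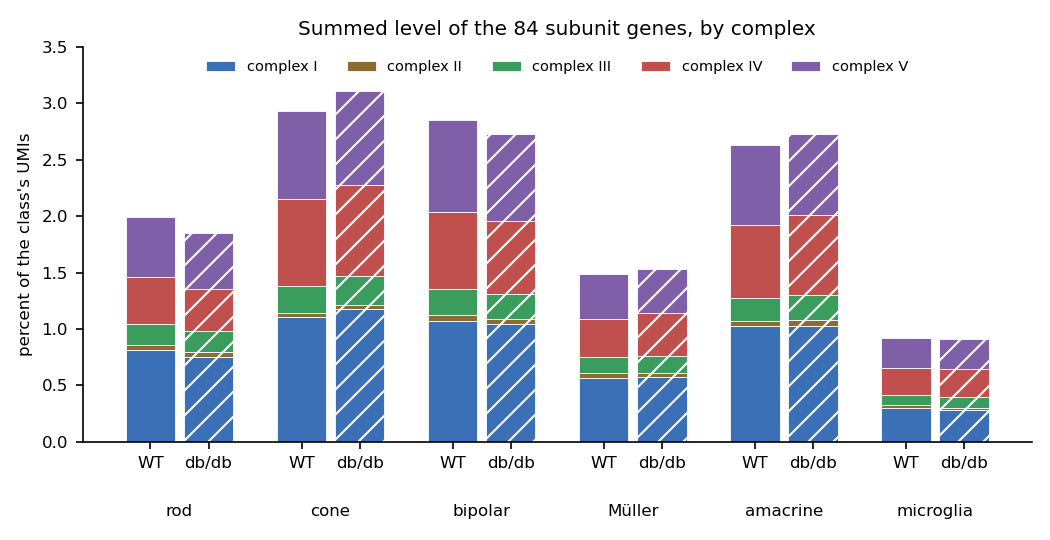
Stacked bars give the summed UMIs of the 84 subunit genes as a percent of all UMIs of a class, split by complex, for the WT library (plain) and the db/db library (hatched). Cone bars reach 2.94% and 3.11%, rod bars 2.00% and 1.85%, and microglia bars 0.922% and 0.907%.

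The class differences were tested with edgeR's quasi-likelihood test on UMIs summed per library and class, with Benjamini-Hochberg adjustment over 12112 genes. In the cone to rod comparison, 64 of the 79 members tested were higher in cones and 4 lower, with a median log2 fold change of 0.51. Over all genes, 17.5% were called higher and 26.5% lower, and the median was -0.21. Complex I (31 of 37 higher, median 0.56), complex IV (11 of 13, 0.68) and complex V (16 of 17, 0.48) were higher in cones in most members. Complex III was higher in 6 of 8 members with a median of 0.31. Complex II stood apart, with none of its 4 members higher and a median of -0.20.

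Cox8a, a small complex IV subunit found in most tissues, differed most between cones and rods. Its level was 2144 and 2166 CPM in WT and db/db cones against 676 and 621 in rods. The groups did not overlap, and the fitted difference was 3.18-fold (log2 1.67, SE 0.11, edgeR adjusted p = 8.35e-36). The next 3 members all belong to the ATP synthase. Atp5j, a subunit of its stalk, stood at 505 and 555 in cones against 250 and 225 in rods (log2 1.10). Atp5g1, a source of the membrane ring subunit c, stood at 665 and 756 against 344 and 304 (log2 1.07). Atp5j2 had a log2 fold change of 0.99.

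Members lower in cones than in rods were few. Ndufa10, an accessory subunit of complex I, stood at 313 and 302 CPM in cones against 338 and 362 in rods (log2 -0.25, edgeR adjusted p = 0.0432), and this call was lost in 6 of 8 alternative fits. Sdhd, a membrane anchor of complex II, stood at 45.2 and 47.3 against 58.1 and 66.6 (log2 -0.49), a call lost in 3 of 8. Cox4i2, described with the isoforms, was also lower.

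Bipolar cells showed 50 of 79 members higher than rods and 5 lower, with a median log2 fold change of 0.40, where 27.8% of all genes were called higher and 32.4% lower. Complex V (14 of 17 higher, median 0.48) and complex IV (9 of 13, 0.68) were higher most widely, complex I in 24 of 37 (0.40), complex III in 2 of 8 and complex II in 1 of 4. Atp5mpl, a small ATP synthase subunit, stood at 550 and 547 CPM in bipolar cells against 215 and 204 in rods (log2 1.29, SE 0.105, edgeR adjusted p = 2.86e-27). Ndufa13, an accessory subunit of complex I, stood at 475 and 412 against 194 and 163 (log2 1.21). Cox7c (log2 1.14) and Ndufc2 (log2 1.04) followed. At the other end, Ndufa10 stood at 198 and 192 against 338 and 362 (log2 -0.95). Uqcrc1, a core protein of complex III, was also lower (log2 -0.69), as was Ndufs3, a core subunit of complex I (127 and 110 against 140 and 141 CPM, log2 -0.35), a call lost in 2 of 8 alternative fits. With gate thresholds doubled, 33 members were called higher, 11 lower, and the median was 0.19.

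Müller cells had most members below rods. Of 79 members, 41 were lower and 6 higher, with a median log2 fold change of -0.32, where 29.2% of all genes were called lower and 29.8% higher. The scaling moved this split: with DESeq2 size factors in the same edgeR fit, 22 were lower, 14 higher, and the median was -0.09. That scaling moved the median of all genes by 0.17 to 0.27 on the log2 scale in the 4 comparisons, always upward. Ndufa10 (117 and 138 CPM against 338 and 362 in rods, log2 -1.46, SE 0.14), Ndufa4 (log2 -1.36) and Cox6a1 (log2 -1.17) were among the lowest, and these 3 stayed below rods in the 8 alternative fits, both scalings included. Ndufa4, named as a complex I gene and now known to sit in complex IV, stood at 432 and 406 against 1174 and 1010. The 6 higher members were Cox4i2, Cox6b2, Uqcr11 (log2 0.62), Ndufc2 (log2 0.59), Ndufa13 (log2 0.38) and Ndufs4 (log2 0.34). For Ndufs4 the libraries disagreed in direction. Its Müller level was 151 CPM against 102 in rods in WT, and 98.1 against 105 in db/db.

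Microglia had the lowest levels. There, 51 of 79 members were lower than in rods and 1 higher, with a median log2 fold change of -0.80, where 23.6% of all genes were called lower and 19.6% higher and the median of all genes was -0.60. One of the 51, Cox4i2, had 0 UMIs in both microglia sums, which at this depth allows up to 20.3 and 14.9 CPM and so gives no fold against the rod levels of 14.3 and 9.72. Without it the median was -0.79. With DESeq2 size factors, 27 were lower, 4 higher, and the median was -0.52. Complex I was lower in 28 of 37 members (median -0.98), and Ndufa10 (67.7 and 64.6 CPM, log2 -2.07) was the lowest member with a measured fold. Ndufa4 stood at 264 and 229 CPM in microglia (log2 -1.81), and Ndufs1 (log2 -2.03) rested on 4 and 2 UMIs. The microglia sums are the smallest, with 42 and 45 cells of median depth 2080 and 4816 UMIs. Cox7a2l, a factor of respiratory supercomplexes, was the 1 higher member (log2 0.54, edgeR adjusted p = 0.00817). Its plain levels of 305 and 318 in microglia and 294 and 256 in rods differed little, and the call was lost in 3 of 8 alternative fits.

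Ndufa10 was called lower than rods in all 4 comparisons, which share the same rod sums. For the cone comparison this held only in the fit as planned and 2 of 8 alternatives.

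**Figure D2:**
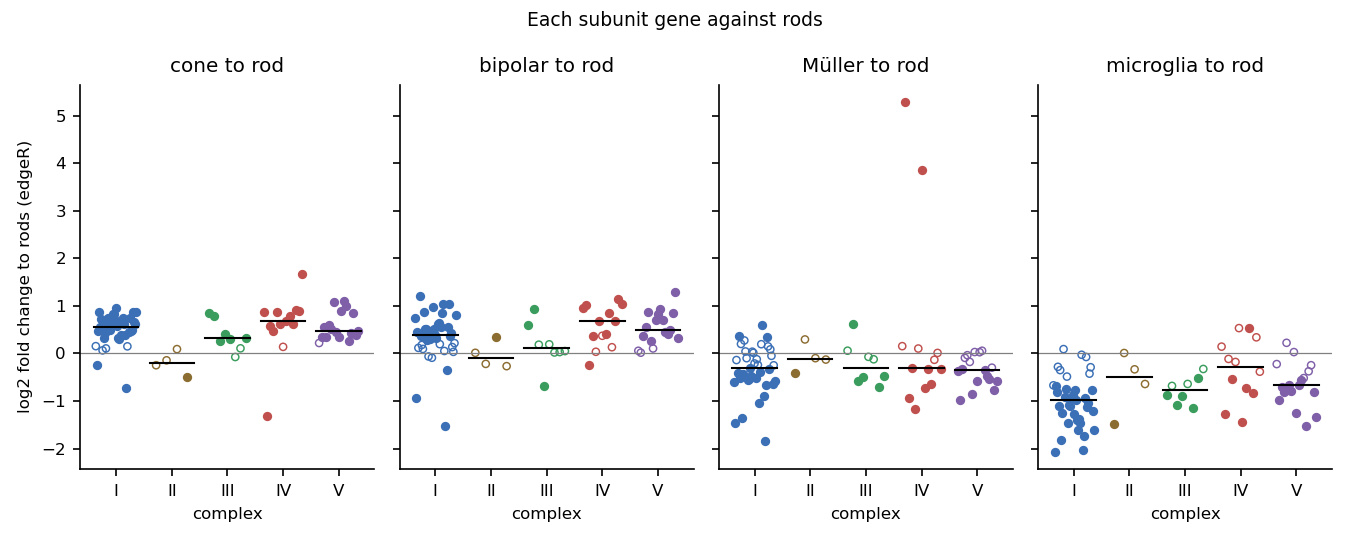
Each point is 1 subunit gene, with its edgeR log2 fold change to rods on the vertical axis, grouped by complex. Filled points passed the adjusted threshold of 0.05, open points did not, bars are medians, and Cox4i2 in microglia (0 UMIs) is left out. Medians lie at 0.51 in cones, 0.40 in bipolar cells, -0.32 in Müller cells and near -0.79 in microglia, and 2 complex IV isoforms stand far above the rest in Müller cells.

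Cox4i2, the second form of complex IV subunit 4, which is known from lung and from cells under low oxygen, was highest in Müller cells by a wide margin. It lies at chr2:152754173-152765037 on the plus strand (GRCm38). Its level in Müller cells was 373 CPM (WT, 326 UMIs) and 577 (db/db, 306 UMIs). Rods held 14.3 and 9.72, bipolar cells 27.3 and 24.5, cones 3.90 and 6.21, amacrine cells 8.18 and 0, and microglia 0 and 0. No class overlapped the Müller values. The Müller to rod difference was 39.0-fold (log2 5.29, SE 0.13, edgeR adjusted p = 1.37e-118), and it lay between log2 5.27 and 5.54 over 8 alternative fits.

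At least 1 Cox4i2 UMI was seen in 127 of 207 WT Müller cells (61.4%, exact interval 54.4 to 68.0) and in 94 of 124 db/db Müller cells (75.8%, 67.3 to 83.0). The share in rods, 3.88% and 2.53%, serves as the background that free RNA can give, and the median depth of Müller cells was higher (4156 and 3836 UMIs against 2330 and 2037). With cells thinned to 1000 UMIs the Müller shares were 31.6% (24.4 to 39.6) and 39.1% (29.1 to 49.9), and the rod shares 0.99% and 0.85%. Cox4i2 made up 39.3% (36.0 to 42.7) of the summed Cox4i1 and Cox4i2 UMIs in WT Müller cells and 49.8% (45.8 to 53.9) in db/db Müller cells. In rods this share was 2.49% and 1.93%, and in cones 0.39% and 0.61%. Cox4i1, the common form, did not pass the test between Müller cells and rods (575 and 581 against 559 and 495 CPM, log2 0.15, edgeR adjusted p = 0.268).

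Cox4i2 is also known as a gene of pericytes, and vascular markers were read in the same Müller sums. Of the 8 vascular markers, Kcnj8, Rgs5 and Pdgfrb mark mural cells, and their UMIs were 0 and 0, 0 and 7, and 54 and 54 in the WT and db/db sums. The WT sum is the deeper, so that Pdgfrb stood at 61.7 and 102 CPM. The endothelial markers Cldn5 (1 and 0 UMIs), Cdh5 (0 and 0) and Pecam1 (2 and 0) were at or near 0. Flt1 (666 and 445) and Kdr (793 and 365) supplied nearly all of the vascular list's 1516 and 871 UMIs. Glul stood at 9245 and 9606 CPM in the Müller cells with a Cox4i2 UMI and at 6798 and 6547 in those without. Pdgfrb stood at 60.1 and 106 CPM in the cells with and at 67.4 and 48.5 in those without, the last from 2 UMIs. Median depth was lower in the cells without (1050 and 853.5 UMIs against 5336 and 5536). The part that vascular cells play in the Cox4i2 level was not tested.

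Cox6b2, the testis form of complex IV subunit 6b, was also highest in Müller cells. It held 77.7 and 67.9 CPM in Müller cells, 5.46 and 4.69 in rods, 5.45 and 6.21 in cones, 5.99 and 8.45 in bipolar cells, and 26.6 and 10.4 in amacrine cells. The Müller to rod difference was 14.6-fold (log2 3.86, SE 0.28, edgeR adjusted p = 1.37e-32). It made up 25.9% (20.7 to 31.6) and 21.4% (15.5 to 28.4) of the summed Cox6b1 and Cox6b2 UMIs in Müller cells, against 2.32% and 2.16% in rods. Cox6b1, its common partner whose promoter holds the ETS letters, stood at 223 and 249 CPM in Müller cells and at 230 and 213 in rods.

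The other tissue forms were scarce. Cox7a1, the heart and muscle form of subunit 7a, had 107 and 165 UMIs in rods (4.17 and 6.34 CPM), and at most 6 UMIs in any other class and library, so that its class order cannot be read at this depth. Cox6a2, a muscle form, had 0 UMIs in both rod sums. Cox8b, another muscle form, had 7 and 1, Cox8c, a testis form, 1 and 1, and Cox7b2, also a testis form, 0 and 2. These last 4 are the members with under 50 UMIs in rods, and they are left out of every ratio there.

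Subunit c of the ATP synthase ring is made from 3 genes that encode the same mature protein, and their class patterns differed. Atp5g1 stood at 665 (WT) and 756 (db/db) CPM in cones, 405 and 342 in bipolar cells, 344 and 304 in rods, and 184 and 166 in Müller cells. It was higher than rods in cones (log2 1.07) but did not pass the test in bipolar cells (log2 0.10, edgeR adjusted p = 0.425). Atp5g3 stood at 545 and 516 CPM in bipolar cells, 373 and 370 in cones, 281 and 275 in rods, and 184 and 183 in Müller cells. Its log2 fold change to rods was 0.83 in bipolar cells and 0.35 in cones. Atp5g2 was also higher in bipolar cells (log2 0.70) and cones (log2 0.45), and its Müller levels of 283 and 221 CPM did not pass the test against the rod levels of 270 and 235. Differences between these genes' fold changes were not tested.

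Among the common forms of complex IV, cones and bipolar cells did not always go together against rods. Cox5a stood at 535 and 531 CPM in cones, 333 and 291 in bipolar cells and 353 and 334 in rods, higher in cones (log2 0.57) and lower in bipolar cells (log2 -0.24, edgeR adjusted p = 0.0442). Cox5b, which sits beside it in the complex, was higher in both (log2 0.48 and 0.36). Cox6a1, the common partner of the muscle form Cox6a2, was higher in cones (531 and 604 against 310 and 280 CPM in rods, log2 0.88) and did not pass the test in bipolar cells (343 and 305 CPM, log2 0.034). Cox7b (log2 0.90 and 0.68) and Cox7a2 (log2 0.79 and 0.85) were higher in cones and in bipolar cells.

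**Figure D3:**
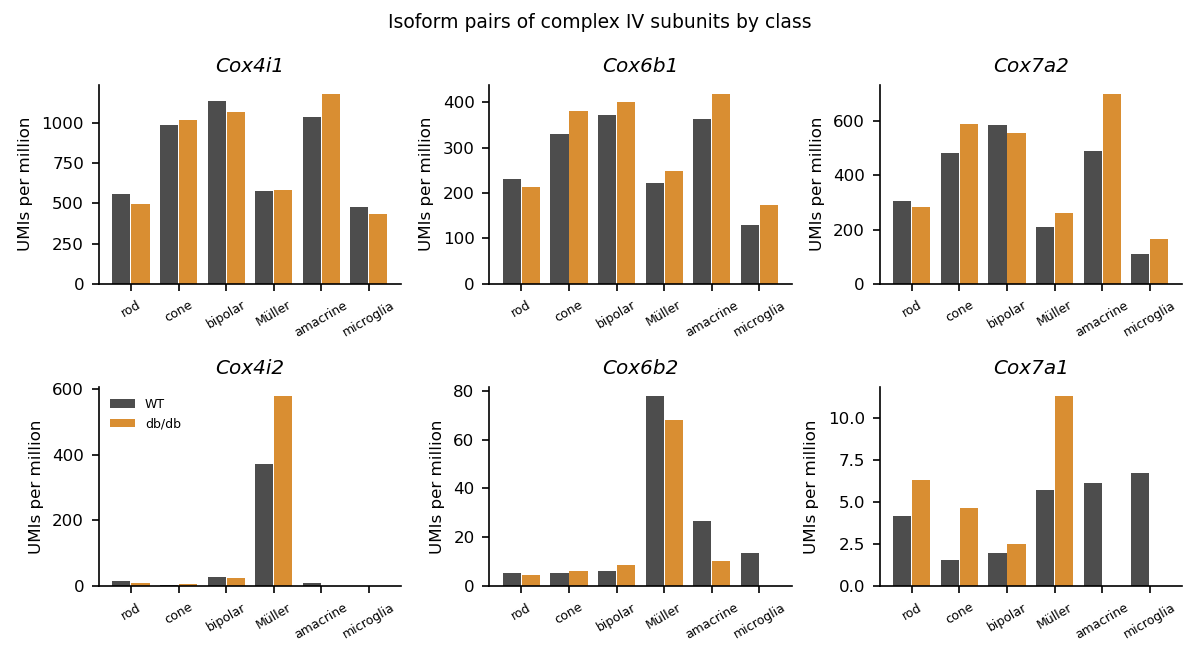
Bars give the level in CPM of 3 isoform pairs of complex IV in each class, with the common form above the tissue form, for the WT library (grey) and the db/db library (orange). The vertical scales differ between panels. Cox4i2 reaches 373 and 577 in Müller cells and stays under 28 in every other class.

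In rods, the subunit genes were lower in the db/db library as a group. A member was counted as measured with at least 50 UMIs over both libraries, which held for 80 of the 84. Of these, 64 were lower in db/db and 16 higher, with a median log2 ratio of -0.11, while 43.1% of 11928 measured genes were lower and the median of all was 0.027. Ribosomal protein genes were lower in 86 of 93 measured, with a median of -0.22, so the lower level was not particular to the subunit genes. The counting interval lay wholly below 0 for 56 members and wholly above for 5, where the shares over all genes were 13.8% and 21.1%. By complex, the medians were -0.11 (I), 0.015 (II), -0.11 (III), -0.14 (IV) and -0.12 (V). Complex II was again apart, with 2 of its 4 members lower.

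Ndufa13 was the complex I member lowest in db/db rods, with 194 CPM in WT and 163 in db/db (log2 -0.26, interval -0.32 to -0.20). Ndufa4 stood at 1174 and 1010 (log2 -0.22). In complex III, Uqcrh stood at 525 and 468 (log2 -0.17), Uqcr11 at 123 and 111 (log2 -0.15) and Uqcrq at 383 and 349 (log2 -0.13). In complex IV, Cox4i2 stood at 14.3 and 9.72 (log2 -0.56, interval -0.79 to -0.32), and at -0.26 with cells thinned to 1000 UMIs. The 10 Müller markers, which rods should lack, were all lower in the db/db rod sums too, at 231 and 192 CPM in sum (log2 -0.26, interval -0.32 to -0.21). Among them Dkk3 stood at 12.3 and 8.53 CPM and Rlbp1 at 47.9 and 36.2, and Müller cells were 2.02% of kept WT cells and 1.13% of kept db/db cells. The part of Müller RNA in the Cox4i2 level of rods was not tested. Cox7a2l stood at 294 and 256 (log2 -0.20), and the interval of Cox6b2 (5.46 and 4.69, log2 -0.22) included 0. In complex V, Atp5h (424 and 366, log2 -0.21) and Atp5g2 (270 and 235, log2 -0.20) were lowest.

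Few members ran the other way in rods. Ndufa10, which was lower outside rods, stood at 338 CPM in WT and 362 in db/db (log2 0.098, interval 0.056 to 0.14). Sdhd stood at 58.1 and 66.6 (log2 0.20, interval 0.10 to 0.30). Cox7a1 stood at 4.17 and 6.34 (log2 0.60, interval 0.24 to 0.97), from few UMIs. The intervals of Sdha, Sdhb, Sdhc, Uqcrfs1, Uqcrc2, Atp5l and Atp5a1 included 0, with log2 ratios between -0.074 (Sdhb) and 0.067 (Uqcrfs1).

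The rod result differed with the share of rod marker RNA in a cell. Rods were grouped by the share of their UMIs on the 12 rod markers, and the subunit genes took a larger share in rods with more marker RNA: 1.28% (WT) and 1.27% (db/db) at a marker share of 3 to 5%, 1.63% and 1.59% at 5 to 7%, 2.26% and 2.30% at 7 to 9%, and 3.25% and 3.23% at 9% and over. Ribosomal protein genes went the same way, from 2.89% and 2.57% to 9.17% and 9.12%, and Malat1, a nuclear RNA, went from 84446 and 82964 to 18830 and 15376 CPM. The db/db library held more of its rod UMIs in the lowest group (22.7% against 16.9%) and fewer in the highest (12.1% against 16.2%). Within the 4 groups the members' median log2 ratio, counted over nuclear-encoded UMIs, was -0.0065, -0.044, 0.035 and 0.0037. With the 4 groups given equal shares of UMIs in both libraries, the median was -0.015 in place of -0.11, with 46 of 80 members lower. The groups were chosen after the data were seen.

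**Figure D4:**
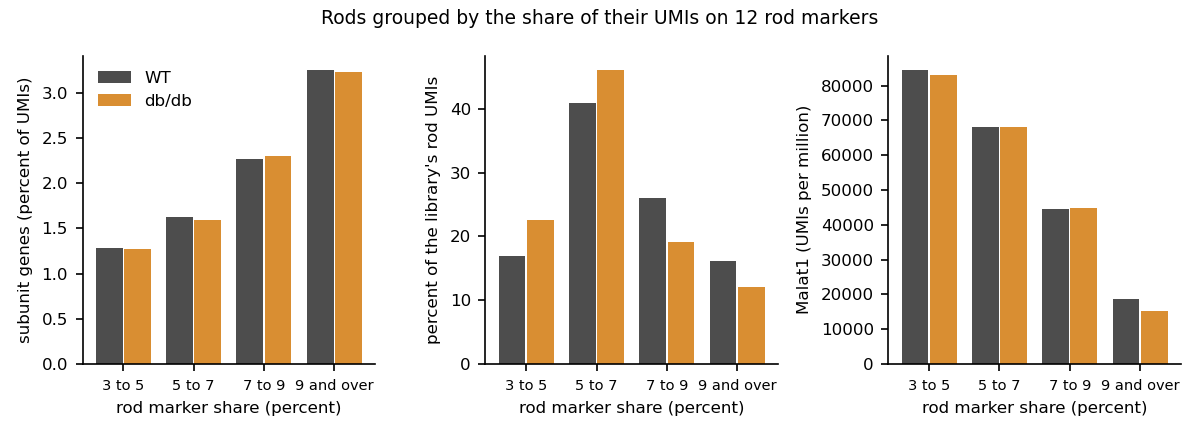
Rods are grouped on the horizontal axis by the percent of their UMIs on 12 rod markers; bars give the subunit genes' share of UMIs (left), the percent of the library's rod UMIs in the group (middle) and Malat1 in CPM (right), for WT (grey) and db/db (orange). The left bars rise from 1.28% and 1.27% to 3.25% and 3.23% with little difference between libraries, while the middle bars differ (16.9% against 22.7% in the lowest group).

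Within the 4 groups of rods, Cox4i2 had log2 ratios of -0.57, -0.47, -0.71 and -0.47. Ndufa13 (-0.11, -0.29, -0.027 and 0.0010) and Ndufa4 (-0.064, -0.18, -0.010 and 0.022), which were lower over all rods, were not lower in every group.

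The members themselves differed in how far they followed the rod markers. Between rods of 9% and over and rods under 5%, with mitochondrial and rod marker genes left out of the total, the median log2 ratio over 79 members was 1.51 in WT and 1.49 in db/db, against -0.54 and -0.59 over all genes. Ndufa4 stood at 579 and 2786 CPM in the low and high group of WT rods and at 552 and 2897 in db/db (log2 2.27 and 2.39). Cox4i1 (2.11 and 2.31) and Ndufa1, an accessory subunit of complex I (2.04 and 2.46), were similarly far apart. Ndufa10 (0.12 and 0.037), Sdhb (0.0064 and -0.042), Sdhd (-0.015 and -0.50) and Ndufs1, a core subunit of complex I (-0.30 and -0.34), were nearly level or lower. Complex II had a median of 0.22 and 0.21.

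Depth and mitochondrial share gave further splits, with ratios again counted over nuclear-encoded UMIs. Rods of 1000 to 2000 UMIs, 25.7% of WT and 37.9% of db/db rods, went against the rest. Their median log2 ratio was 0.25, with 5 of 78 members lower in db/db. Rods of 500 to 1000 UMIs had -0.047, those of 2000 to 4000 had -0.14, those of 4000 to 8000 had -0.14, and those above 8000 had -0.28. In all 5 bins of mitochondrial share the median was below 0, between -0.11 and -0.048. What sets these differences between bins was not tested.

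In cones, members were higher in the db/db library. Of 77 measured members, 58 were higher and 19 lower, with a median log2 ratio of 0.09, while 50.8% of all measured genes were lower and their median was -0.0066. The interval lay above 0 for 15 members and below 0 for none, against 4.61% and 3.69% of all genes. Atp5mpl stood at 247 (WT) and 328 (db/db) CPM (log2 0.41, interval 0.20 to 0.62). Atp5l, a subunit of the membrane part of the ATP synthase, stood at 519 and 631 (log2 0.28), and Cox7a2, the common form of subunit 7a, at 482 and 588 (log2 0.29). The lowest was Atp5g2 (377 and 343, log2 -0.14, interval -0.33 to 0.05), which is within counting error of no difference.

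In bipolar cells the direction was that of rods. There, 54 of 78 measured members were lower in db/db, with a median of -0.07, while 52.1% of all genes were lower and their median was -0.013. Ribosomal protein genes were lower in 79 of 88 measured, with a median of -0.13. Intervals lay below 0 for 6 members and above 0 for 2, against 5.81% and 5.44% of all genes. Ndufs1, a core subunit of complex I, stood at 113 (WT) and 84.5 (db/db) CPM (log2 -0.42, interval -0.79 to -0.056). Uqcrfs1, the iron-sulfur protein of complex III, stood at 148 (WT) and 113 (db/db) (log2 -0.39, interval -0.71 to -0.07). Atp5g1 stood at 405 and 342 (log2 -0.24) and Cox8a at 1505 and 1344 (log2 -0.16). Ndufa12 (194 and 243, log2 0.32) and Sdha, the flavoprotein of complex II (212 and 256, log2 0.27), were higher, but Sdha turned to -0.16 with cells thinned to 1000 UMIs.

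Müller cells showed no common direction. Of 79 measured members, 35 were lower and 44 higher, with a median of 0.050, while 47.2% of all genes were lower and their median was 0.023. Intervals lay below 0 for 3 and above 0 for 3, against 4.89% and 6.1% of all genes. Cox4i2 was higher in db/db Müller cells (373 and 577, log2 0.63, interval 0.40 to 0.86), opposite to its direction in rods, and it stayed between 0.57 and 0.81 over 11 alternatives. In the same sums the mural marker Pdgfrb stood at 61.7 and 102 CPM and Rgs5 at 0 and 13.2. Ndufa4l2, a relative of Ndufa4, stood at 9.14 and 81.1, and the whole vascular list at 1732 and 1643. In db/db, the 43 Ndufa4l2 UMIs and 7 Rgs5 UMIs all lay in cells with a Cox4i2 UMI. So did 52 of 54 Pdgfrb UMIs and 4695 of 4965 Glul UMIs. The part of vascular cells in this difference was not tested. Ndufv3 (111 and 162, log2 0.55) and Ndufs5 (240 and 308, log2 0.36) were also higher, but Ndufs5 turned to -0.062 with cells thinned to 1000 UMIs. Ndufs4, an accessory subunit of complex I, stood at 151 and 98.1 (log2 -0.62, interval -1.11 to -0.15), Cox5a at 201 and 145 (log2 -0.47), and Atp5g2 at 283 and 221 (log2 -0.36). These last values rest on 52 to 248 UMIs in each library.

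In microglia only 20 members were measured. Of these, 6 were lower and 14 higher, with a median of 0.06, while 51.3% of all measured genes were lower. The interval of each of the 20 included 0, so no difference was detectable at this depth. In amacrine cells the median over 73 measured members was -0.00034, and over all measured genes -0.045.

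**Figure D5:**
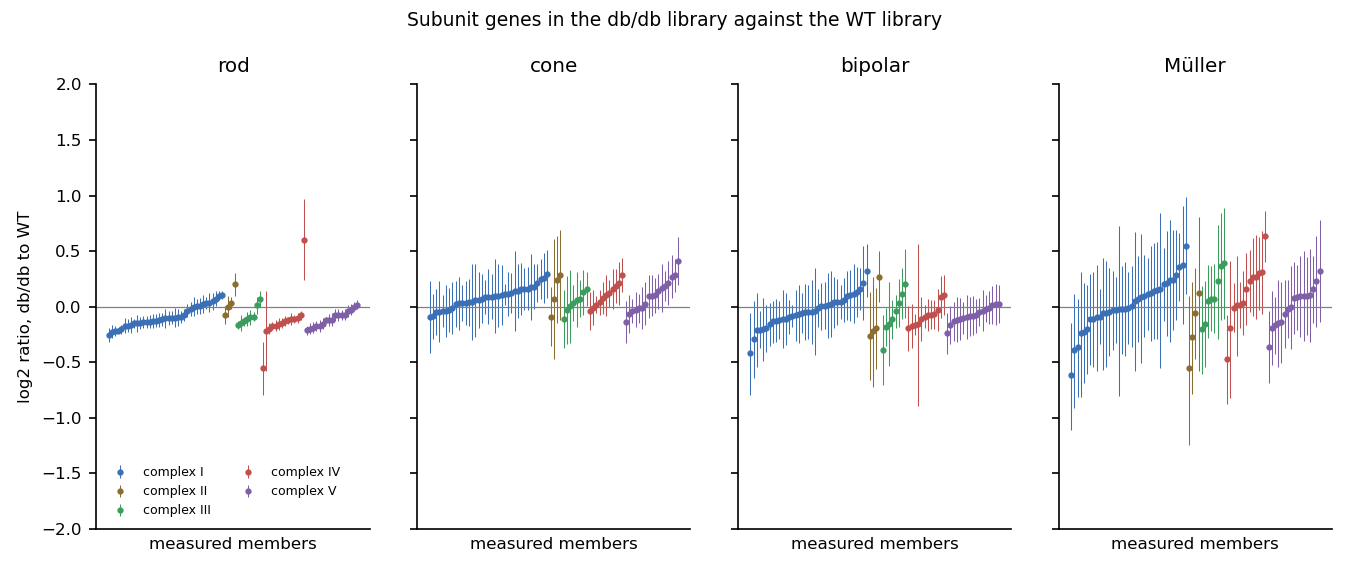
Each point is 1 measured subunit gene with its log2 ratio of db/db to WT and its exact 95% counting interval, ordered within each complex (colours), in 4 classes. Medians are -0.11 in rods, 0.09 in cones, -0.07 in bipolar cells and 0.05 in Müller cells, and intervals widen with fewer UMIs.

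The rest of the pathway was read from 5 lists. Their counts stand beside the shares over all genes given above: 17.5% higher and 26.5% lower in cones, 27.8% and 32.4% in bipolar cells, 29.8% and 29.2% in Müller cells, 19.6% and 23.6% in microglia, and 43.1% of genes lower in db/db rods. A count near these shares, as for the regulators and carriers in Müller cells, is no result about its list. The mitochondrially encoded subunits followed the nuclear ones in cones, with 12 of 13 higher than in rods (median log2 0.79, mt-Co1 at 1.55), and in bipolar cells, with 11 of 13 (0.52). In Müller cells none was higher and 5 were lower (-0.24), but DESeq2 size factors moved the median of all genes there by 0.22. In microglia none was higher and 8 were lower (-0.45), while the median of all genes was -0.60. In amacrine cells, which entered no test, the summed level was 34850 (WT) and 39570 (db/db) CPM against 36103 and 35066 in rods. The WT value was thus below rods, where the nuclear members were above. Between libraries the mitochondrially encoded subunits did not follow the nuclear ones everywhere: in bipolar cells 11 of 13 were higher in db/db (median 0.14), where the nuclear members had -0.07. In rods 7 of 13 were lower (median -0.06), with mt-Nd4 at 3226 and 2573 CPM (log2 -0.33). The libraries' mitochondrial percents were 3.61 and 3.51 in rods and 6.11 and 7.10 in bipolar cells.

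Assembly factors, which build the complexes without staying in them, were not higher as a group where the subunits were. In cones 10 of 45 were higher and 7 lower (median 0.03), and in bipolar cells 8 were higher and 18 lower (-0.31). In Müller cells 2 were higher and 17 lower (-0.42), and in microglia none was higher and 15 were lower (-1.08). In rods 30 of 45 were lower in db/db (median -0.06), led by Sdhaf4, a factor of complex II, at 116 and 91.5 CPM (log2 -0.34).

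Biogenesis regulators are here nuclear-encoded factors that act on respiratory genes or on mitochondrial DNA. They were lower in cones than in rods in 9 of 13 genes and higher in none (median -0.78). Ppargc1b, a coactivator, had a log2 fold change of -1.89 there. In bipolar cells 8 were lower and 1 higher, and Ppargc1a, its relative, had -2.45. In Müller cells 4 were lower and 1 higher, and in microglia 5 and 2. In rods 11 of 14 were higher in db/db (median 0.13), with Nrf1 at 79.4 and 91.1 (log2 0.20, interval 0.11 to 0.29) and Esrra, a nuclear receptor, at 8.82 and 11.1 (log2 0.34). In the rods of 9% marker share and over, none of 13 regulators was higher than in the rods under 5%, in either library. Most genes were lower in this comparison: of 9179 measured, 2487 were higher in WT and 2410 in db/db. The regulators' medians were -0.79 and -1.07, against -0.54 and -0.59 over all genes.

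Electron carriers and other subunits were higher in 6 of 12 genes and lower in 2 in cones (median 0.46). In bipolar cells 4 were higher and 1 lower (0.01), in Müller cells 3 and 4, and in microglia 1 and 2. Atpif1, the inhibitor of ATP synthase, was among the highest in cones (log2 1.07) and bipolar cells (1.36). In rods 5 of 12 were lower in db/db. Mitochondrial carriers and porins were higher in 4 of 9 and lower in 1 in cones, 4 and 2 in bipolar cells, 3 and 3 in Müller cells, and 1 and 4 in microglia. Vdac1, a pore of the outer membrane, had a log2 fold change of 2.01 in bipolar cells, and in rods 6 of 9 were lower in db/db (median -0.08).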

How the data were processed

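Whole-retina cells of 1 BKS WT and 1 BKS db/db library were sequenced on the 10x platform. The deposited files hold UMI counts per gene and cell, made by the authors with Cell Ranger (6.0.1 per the file headers) against mm10, per the submitters' processing notes. Use of strand in counting is not given in the sources used here, and exons of 30 of the 84 members overlap another gene. Cells with at least 200 genes and at most 20% mitochondrial UMIs were kept and gated by summed marker shares (rod 3%, cone 1%, bipolar 0.3%, Müller 0.5%, amacrine 0.1%, microglia 0.3%), with thresholds set after marker shares were seen. No doublet caller was run; cells passing several gates were left out.

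UMIs were summed per library and class. Ratios of db/db to WT are of CPM (UMIs per 1000000 of the class) with exact binomial 95% intervals. Classes were compared with rods by edgeR 4.0.16 (quasi-likelihood, TMM, library as block, Benjamini-Hochberg, threshold 0.05) on 10 sums of 5 classes. This left 4 residual degrees of freedom, and n was 2 libraries of different genotype per class. With library as block, p-values measure only how far class differences disagreed between these 2 libraries, with information on the spread shared over genes. They do not measure the spread between mice. The fit was tested on simulated data. Alternatives included DESeq2 1.42.0, thinning to 1000 UMIs, stricter gates and other filters. Named members were the 4 highest and 4 lowest calls per class comparison, and the highest and lowest ratios per class or complex, ranked by the interval bound nearest 0, with isoform pairs in full; Uqcr11 (rods), Ndufs1 (bipolar cells) and Ndufa1 were added after their values were seen. Members, lists and this rule were chosen with earlier results of these data known. Values of some genes are not reported here.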

Additional observations from a re-analysis of the deposited data

Results flagged for a closer look

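Summed over all cells of a class, the subunit genes went opposite ways in the photoreceptor classes. Their median log2 ratio of db/db to WT was -0.11 in rods (64 of 80 measured members lower) and 0.090 in cones (58 of 77 higher). Within the 4 groups of rods by rod marker share, the median was -0.0065, -0.044, 0.035 and 0.0037, counted over nuclear-encoded UMIs. The rod direction was thus not seen in every group. Ribosomal protein genes had medians of -0.22 in rods and 0.041 in cones. The subunit genes' difference between classes was not tested, since each genotype is 1 library.

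Cox4i2 was lower in db/db rods (log2 -0.56) and higher in db/db Müller cells (log2 0.63). This difference was not tested either. The 10 Müller markers in sum were also lower in the db/db rods (231 and 192 CPM, log2 -0.26), and Pdgfrb (61.7 and 102 CPM) and Ndufa4l2 (9.14 and 81.1 CPM) were also higher in the db/db Müller sums. Of the other vascular markers there, Flt1 was higher (761 and 840 CPM) and Kdr lower (906 and 689). The whole vascular list stood at 1732 and 1643 CPM. The part of these genes' source cells in the Cox4i2 difference was not tested.

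Rods of 1000 to 2000 UMIs had a median ratio of 0.25, against values below 0 in the 4 other depth bins. This bin held 25.7% of WT rods and 37.9% of db/db rods. The subunit genes took 1.61% of nuclear-encoded UMIs there in WT and 1.94% in db/db. In rods of 500 to 1000 UMIs the median was -0.047, and the interval of the summed members (-0.051 to 0.021) included 0. The difference between bins was not tested.

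Cells gated as retinal pigment epithelium, which entered no comparison, held the highest subunit share of any gated class: 4.21% of UMIs (exact interval 3.96 to 4.49) in 17 WT cells and 3.68% (3.36 to 4.03) in 4 db/db cells. Both class sizes are under the minimum of 20 cells.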

How the results depend on the processing

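Ratios of db/db to WT carry no replicate check. No paired analysis was possible because each genotype has 1 library; the class comparisons already hold the library as a replicate block, and leaving the block out moved none of their counts past 1.5 times. Amacrine alternatives were not run, since the class has 19 db/db cells. Depth limits microglia, where 20 members were measured. Where a value moved, the cause was not tested.

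The rod median of -0.11 became -0.14 (mitochondrial share at most 10%), -0.053 (equal weight per cell), -0.065 (thinned), -0.14 (centred on all genes), -0.14 (denominator without mitochondrial, ribosomal, haemoglobin and rod marker genes), -0.078 (without the 8% of cells with most UMIs), -0.022 (gates doubled), -0.12 (members with no exon overlap), and with equal UMI shares per bin -0.12 (depth), -0.087 (mitochondrial) and -0.015 (rod marker). The binned and overlap settings were added after seeing the data. Cones gave 0.11 thinned and 0.12 without the top 8%. Bipolar cells gave -0.049 (mitochondrial limit), -0.095 (equal weight), -0.14 (thinned) and -0.051 (gates doubled). Müller cells gave 0.13 (equal weight), 0.14 (without the top 8%), 0.0082 (gates doubled) and 0.097 (rod RNA subtracted). Microglia reversed to -0.11 without the top 8%. Thinning also reversed bipolar Sdha (-0.16) and Müller Ndufs5 (-0.062).

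Under the DESeq2 Wald test the class comparisons gave 1 lower member and a median of 0.69 (cone), 3 and 0.61 (bipolar), 12 higher, 16 lower and -0.085 (Müller), and 3 higher, 25 lower and -0.52 (microglia). With DESeq2 size factors in edgeR they gave 2 lower and 0.69, 3 lower and 0.61, 14 higher, 22 lower and -0.092, and 4 higher, 27 lower and -0.52. With gates doubled the medians were 0.34 (cone), 0.19 (bipolar, 33 higher, 11 lower), -0.59 (Müller, 3 higher) and -1.06 (microglia, 0 higher). With rod RNA subtracted they were 0.37 (bipolar), -0.47 (Müller; -0.465 before rounding) and -1.35 (microglia, 0 higher). Fits of only the class and rods gave 0.43 (bipolar) and 0 higher in microglia, and the mitochondrial limit gave 0.45 in bipolar cells. From single libraries, plain medians ran from 0.50 to 0.67 (cone), 0.49 to 0.53 (bipolar), -0.39 to -0.28 (Müller) and -1.25 to -1.13 (microglia). Of 232 alternative values for 29 named class differences, 216 kept direction and call and 16 lost the call.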
